A study of Mus musculus with 52 samples.

Results

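The 10 genes described here belong to the immediate early response and were followed across single mouse bone marrow cells: the AP-1 subunit genes Fos, Fosb, Jun, Junb and Jund, the stimulus-responsive factors Egr1, Nr4a1, Ier2 and Atf3, and Zfp36, which encodes an mRNA decay factor. The members were taken by symbol, and all 10 were among the 28786 gene entries of the count table. The series holds 52 Smart-seq2 libraries of 1 cell each, a plate method that copies full-length mRNA and carries no molecular identifiers. All are labelled primed HSCs (haematopoietic stem cells) from bone marrow of C57BL/6 mice, genotype Cd4-cre;R26Tdtomato, 6 to 8 weeks of age. All samples share a step in which 0.16 M ammonium chloride lysed the red cells of flushed leg-bone marrow. In these mice Cre is driven by Cd4 regulatory sequence and can switch on a tdTomato reporter. How many animals were used, how cells were gated and what "primed" stands for is not given in the sources used here.

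Immediate early genes are transcribed within minutes of a stimulus from factors already present in the cell, and their mRNAs are short-lived. FOS and JUN proteins pair through leucine zippers to form AP-1, a DNA-binding dimer; JUN proteins can also pair with each other, whereas FOS proteins need a JUN partner. Growth factors, cytokines and stress reach these promoters through MAP kinases and the factors SRF, ELK and CREB, and cell isolation itself is a well-known inducer. In blood stem cells, Nr4a1 and Egr1 are known for roles in quiescence and in the retention of stem cells in their niche.

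Each cell's expected counts were rounded, called reads below, and scaled to CPM, counts per 1000000 reads. Kept were the 49 cells that had 50000 reads or more, 1000 detected genes or more and no more than 20% of reads from mitochondrial genes. They held a median of 2187579 reads (85519 to 12446477). Of these, 14 had at least 10 CPM of Cd34, a surface sialomucin of stem and progenitor cells, and are called Cd34 cells. Another 33 had at least 200 CPM of Klf1, the erythroid master regulator, with Cd34 under 10 CPM, and are called Klf1 cells. Cell 2 met both marks (91.0 CPM of Cd34, 1160 CPM of Klf1) and was counted with the Cd34 cells, and cells 9 and 34 met neither. Kit reached 10 CPM in 48 of the 49 cells, but the stem cell markers Ly6a and Procr each did so in only 4 and Slamf1 in 5, so the label HSC was not matched by these markers in most cells. No animal is named, so all cells form 1 sample: groups of cells are compared by size alone, with no test, and SDs are over cells. Intervals of shares treat cells, and those of sums treat reads, as independent draws. They do not cover differences between animals and are no test of the groups.

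The groups differed in depth and in other lineage markers. The Cd34 cells had a median of 1083632 reads and 5758 genes with a read, against 2887968 reads and 7472 genes in the Klf1 cells. Mitochondrial reads had a median of 3.85% in the Cd34 cells and 3.44% in the Klf1 cells. Neutrophil and monocyte markers, 9 genes in all, summed to a median of 728 CPM (190.5 to 2798) in the Cd34 cells, against 1.75 CPM (0 to 485) in the Klf1 cells. All 3 of the 3 that could be compared, Lyz2, Prtn3 and Tyrobp, were higher in the Cd34 cells, while Elane, Csf1r, Ly6c2 and S100a8 had 0 reads there. Megakaryocyte markers, 7 genes, summed to a median of 692 CPM (47.3 to 3332) in the Cd34 cells, against 47.2 CPM (1.66 to 1330) in the Klf1 cells. Of the 8 T lineage markers, Cd3e, Cd4, Trbc2, Bcl11b and Il7r had 0 reads in both groups. The part of depth and of these markers in the differences below was not tested.

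Promoter sequences are shown for 5 members that stand for the patterns described below. Nr4a1 was more often at 10 CPM in Cd34 cells than in Klf1 cells, and Zfp36 had a higher mean there. Jun and Fos were present in both groups, and Fosb was more often at 10 CPM in Klf1 cells than in Cd34 cells. Each sequence is the 250 bases before the RefSeq transcription start, 5′ to 3′ on the gene's strand, from build GRCm38.p6. Capitals mark TGACG on the strand shown or CGTCA, its form on the other strand; this is the core of the cAMP response element bound by CREB and ATF factors.
Nr4a1 (chr15:101266596-101266845, plus strand): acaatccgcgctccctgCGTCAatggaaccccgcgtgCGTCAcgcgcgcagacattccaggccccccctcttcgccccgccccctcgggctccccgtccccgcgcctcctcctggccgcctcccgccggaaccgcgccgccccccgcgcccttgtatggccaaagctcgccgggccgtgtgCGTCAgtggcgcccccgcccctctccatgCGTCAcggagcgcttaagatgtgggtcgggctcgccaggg
Zfp36 (chr7:28379229-28379478, minus strand): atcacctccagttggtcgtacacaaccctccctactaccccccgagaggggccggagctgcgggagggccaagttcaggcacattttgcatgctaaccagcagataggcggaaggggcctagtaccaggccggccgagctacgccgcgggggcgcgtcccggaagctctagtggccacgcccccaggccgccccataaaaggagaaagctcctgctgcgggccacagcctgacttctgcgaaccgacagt
Jun (chr4:95052223-95052472, minus strand): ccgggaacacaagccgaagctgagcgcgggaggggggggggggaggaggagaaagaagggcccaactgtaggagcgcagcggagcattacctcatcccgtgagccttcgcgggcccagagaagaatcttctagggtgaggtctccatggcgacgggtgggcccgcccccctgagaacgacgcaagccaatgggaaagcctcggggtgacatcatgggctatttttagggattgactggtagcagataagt
Fos (chr12:85473640-85473889, plus strand): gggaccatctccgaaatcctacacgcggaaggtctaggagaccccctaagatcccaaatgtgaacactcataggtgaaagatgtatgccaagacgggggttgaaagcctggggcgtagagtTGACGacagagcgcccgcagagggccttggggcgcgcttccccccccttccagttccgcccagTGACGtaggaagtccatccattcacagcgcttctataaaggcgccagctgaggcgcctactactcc
Fosb (chr7:19310046-19310295, minus strand): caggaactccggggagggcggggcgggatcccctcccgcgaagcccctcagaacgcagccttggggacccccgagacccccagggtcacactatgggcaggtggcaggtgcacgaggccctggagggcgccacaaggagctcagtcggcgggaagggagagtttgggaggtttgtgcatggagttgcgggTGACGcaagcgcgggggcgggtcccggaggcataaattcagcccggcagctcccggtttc
RefSeq promoters were found for 8 members, all but Egr1 and Ier2. TGACG, on either strand, was present in 5 of these 8 windows, against 17.8% of all 32851 windows of the same length. Nr4a1 had 4 matches, which begin 233, 213, 69 and 40 bases before the start; 0.137% of all windows had at least 4. Fos had 2 matches, beginning 129 and 66 bases before the start, and Fosb, Junb and Atf3 had 1 each. Jun, Zfp36 and Jund had none, and the Zfp36 window was the only one of the 8 with a CArG box, the SRF binding motif, which 1.47% of all windows held. TGANTCA, an AP-1 motif, was in 0 of the 8 windows and in 6.75% of all windows. GGGCGG, the Sp1 motif, was in 6 of the 8 and in 32.7% of all. The RefSeq start lies inside the start of the GENCODE gene by 12577 bases for Nr4a1, 1025 bases for Zfp36 and 34706 bases for Atf3. For Jund the offset is -1210 bases, which is before that start. A gene can thus have further start sites, whose windows were not searched. Only exact matches were counted, so sites that vary from these motifs were not. Bases more than 250 before the start were not searched either. A motif missing from a window, such as the CArG box, can thus still be present elsewhere at the gene. These matches describe letters in a short window and not factor binding.

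In the genome (GRCm38, GENCODE M21), Ier2 (chromosome 8, 84661331 to 84662852) and Junb (chromosome 8, 84974484 to 84978718) lie on either side of Klf1 (84901928 to 84905291). Junb begins 69192 bases past Klf1, and Ier2 ends 239075 bases before it. Jund is also on chromosome 8, Fosb and Zfp36 are on chromosome 7, Nr4a1 on 15, Fos on 12, Jun on 4, Egr1 on 18 and Atf3 on 1. Junb overlaps Prdx2, and Jund overlaps Gm11175, on the opposite strand, and whether strand was used in the counting is not stated, so reads of these pairs may not be fully separated.

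Cells differed widely in the level of the members. At least 5 of the 10 members reached 10 CPM in 42 of 49 cells (85.7%, exact Clopper-Pearson 95% interval 72.8 to 94.1). This held in all 14 Cd34 cells, where 6 to 9 members did so (median 7), and in 27 of the 33 Klf1 cells (81.8%), where 2 to 9 did so (median 6). The 10 members summed to a mean of 6614 ± 3902 CPM in the Cd34 cells (SD, n = 14 cells; 1477 to 17129) and to 2296 ± 2549 CPM in the Klf1 cells (SD, n = 33 cells; 158.5 to 11973). The summed ranges of the groups overlapped. By single genes, 6 members reached 10 CPM in at least 50% of all kept cells, a mark that 55.9% of the 9158 genes tested also met. The share of members is thus near that of genes in general, and no value over all genes stands beside the share of cells with at least 5 members. A gene was tested where it averaged 5 CPM or more and was detected in 10 or more cells, and 9 members passed, all but Atf3.

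**Figure D1:**
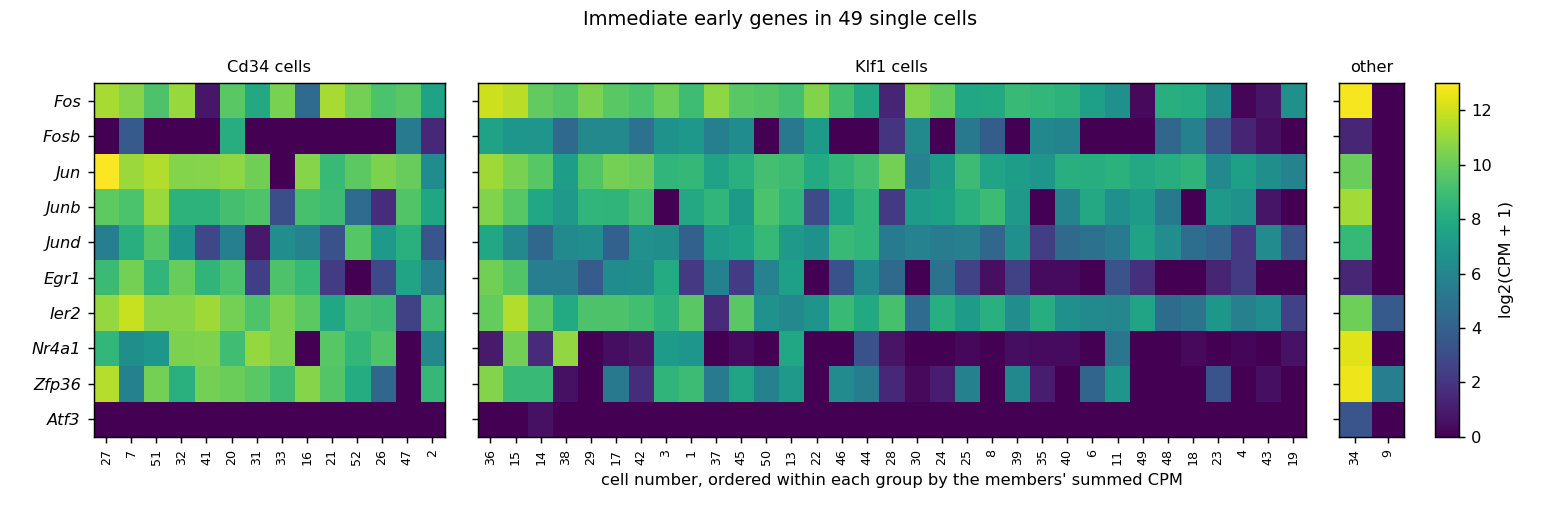
Level of each member as log2(CPM + 1) (colour) in the 49 kept cells (columns, by cell number), with the Cd34 cells on the left, the Klf1 cells in the middle and cells 34 and 9 on the right. The Nr4a1 row is at or above 10 CPM in 12 of the 14 Cd34 cells and in 6 of the 33 Klf1 cells, while the Jun row is filled in nearly all cells.

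In all, 6 members were called higher in the Cd34 cells, by a difference of mean log2(CPM + 1) of at least 1: Jun, Junb, Egr1, Ier2, Nr4a1 and Zfp36. Such a call was made for 9.67% of the 9158 genes tested. Fosb was called lower, as were 46.3% of the genes tested, so a lower call is common in this comparison. The median difference over all genes tested was -0.87, and over the 9 members tested it was 1.51. With every cell thinned to 50000 reads, the median over all genes was -0.76 and the same number of members, 6, was called higher.

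Nr4a1, an orphan nuclear receptor (also called Nur77) induced by antigen receptor and growth factor signals, had the largest difference of mean log2(CPM + 1) of the members, while Zfp36 had the largest fold of means. Its level in the Cd34 cells was 0 CPM at the lowest, 450.0 CPM at the median and 2002 CPM at the highest. In the Klf1 cells it was 0 CPM at the lowest, 0.280 CPM at the median and 1909 CPM at the highest. The ranges overlapped, because 6 Klf1 cells were at 10 CPM or more: cell 38 at 1909, cell 15 at 1197, cell 13 at 223, cell 3 at 145, cell 1 at 113 and cell 11 at 33.2 CPM. In the Cd34 cells, cells 16 and 47 alone had no Nr4a1 read. Nr4a1 reached 10 CPM in 12 of 14 Cd34 cells (85.7%, interval 57.2 to 98.2) and in 6 of 33 Klf1 cells (18.2%, 6.98 to 35.5). With every cell thinned to 50000 reads it was found in 12 Cd34 cells and in 5 Klf1 cells.

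The mean level of Nr4a1 was 658 ± 648.7 CPM in the Cd34 cells and 110 ± 386 CPM in the Klf1 cells (SD over 14 and 33 cells), a 5.97-fold difference of means. Pooled over cells, its reads came to 589 CPM in the Cd34 cells (exact Poisson interval 579.9 to 598) and to 96.99 CPM in the Klf1 cells (95.03 to 99.0). Cell 38 held 52.5% of the Klf1 cells' summed CPM, and without it the fold of means was 12.2. The log2 difference was 5.86, a value that 0.164% of the genes tested reached. Nr4a1 was the 1 member restricted to Cd34 cells by the rule used, at 10 CPM in at least 50% of Cd34 cells and in at most 20% of Klf1 cells; 1.15% of the genes tested met it. Among cells with at least 1000000 reads it was at 10 CPM in all 7 Cd34 cells and in 6 of 29 Klf1 cells (20.7%), just past that limit, so by the rule none was restricted there. A read of Nr4a1 at any level was found in 20 of the 33 Klf1 cells, mostly at under 3 CPM.

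Zfp36, which encodes tristetraprolin, binds AU-rich elements and speeds the decay of many immediate early mRNAs. In the Cd34 cells it had 0 CPM at the lowest, 602 CPM at the median and 3026 CPM at the highest. In the Klf1 cells it had 0 CPM at the lowest, 9.49 CPM at the median and 1528 CPM at the highest. All Cd34 cells but cell 47 were above the Klf1 median, and 2 were above every Klf1 cell. It reached 10 CPM in 13 of 14 Cd34 cells (92.9%) and in 16 of 33 Klf1 cells (48.5%, interval 30.8 to 66.5). The means were 808 ± 819 CPM in the Cd34 cells and 124 ± 289 CPM in the Klf1 cells, 6.53-fold apart, and 10.1-fold without cell 36, the highest Klf1 cell. The log2 difference was 4.61.

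Egr1, a zinc finger factor of growth and stress signalling, had 0 CPM at the lowest, 371 CPM at the median and 1258 CPM at the highest in the Cd34 cells. In the Klf1 cells it had 0 CPM at the lowest, 5.25 CPM at the median and 1205 CPM at the highest. It was thus high in most Cd34 cells and in a few Klf1 cells, with overlapping ranges. Levels of 10 CPM were reached in 10 of 14 Cd34 cells (71.4%, 41.9 to 91.6) and in 14 of 33 Klf1 cells (42.4%, 25.5 to 60.8), and these intervals overlapped. Its means were 389 ± 395 CPM in the Cd34 cells and 87.4 ± 240 CPM in the Klf1 cells, 4.46-fold apart, and 7.42-fold apart without cell 36. All of Egr1, Nr4a1 and Zfp36 reached 10 CPM in 8 of 14 Cd34 cells and in 3 of 33 Klf1 cells. None of these 3 genes did so in 0 of 14 Cd34 cells, which allows a share of up to 21.4% by 3 counts of 14 and of up to 23.2% by the exact interval, and in 12 of 33 Klf1 cells (36.4%).

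Ier2, a nuclear protein gene of the early response, was found in all 49 kept cells. It had 4.79 CPM at the lowest, 1034 CPM at the median and 3826 CPM at the highest in the Cd34 cells, and 2.02, 194 and 2884 CPM at these points in the Klf1 cells. Ier2 was at 10 CPM in 13 of 14 Cd34 cells and in 31 of 33 Klf1 cells, so the groups shared its presence and differed in level. The means were 1228 ± 1009 CPM in the Cd34 cells and 368 ± 535 CPM in the Klf1 cells, 3.33-fold apart. In 13 of 14 Cd34 cells Ier2 exceeded the Klf1 median.

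**Figure D2:**
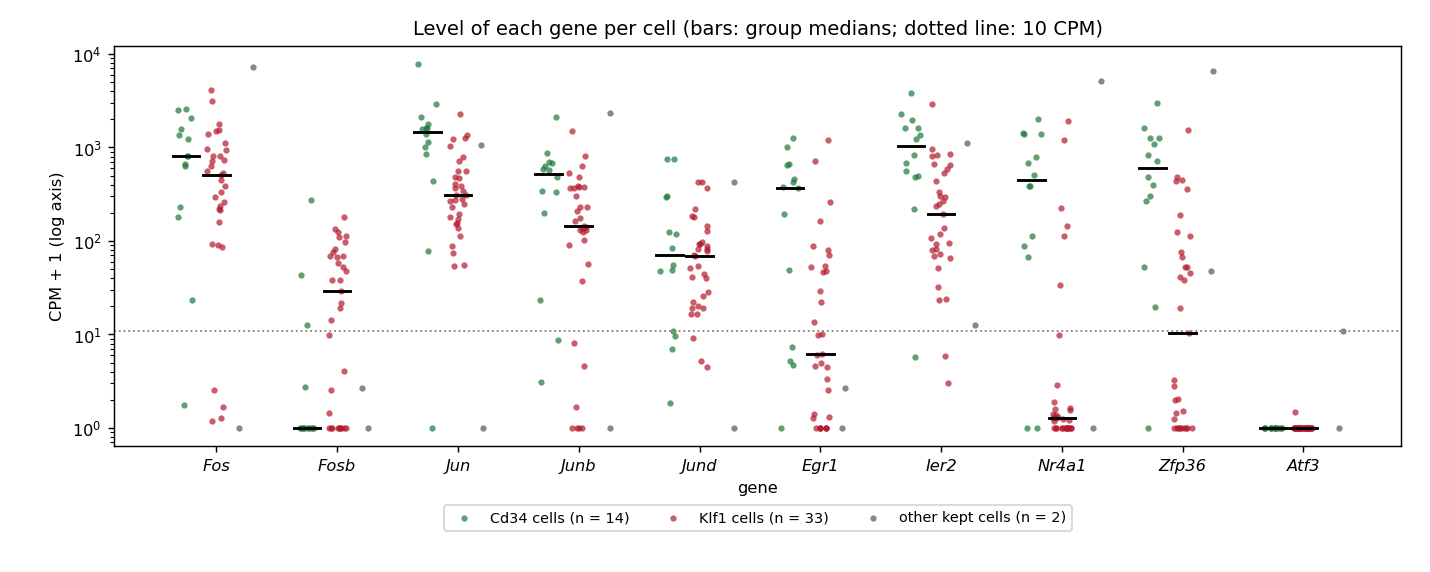
CPM + 1 on a log axis for each member in each of the 49 kept cells, with Cd34 cells (green) left of Klf1 cells (red) and cells 34 and 9 in grey; bars are medians of the Cd34 and Klf1 cells and the dotted line is 10 CPM. The medians of Nr4a1 (450.0 and 0.280 CPM) and Zfp36 (602 and 9.49 CPM) are far apart, those of Jund (69.0 and 67.3 CPM) are alike, and Fosb has its higher median in the Klf1 cells.

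Among the AP-1 subunits, Jun was present almost everywhere. It reached 10 CPM in 13 of 14 Cd34 cells and in all 33 Klf1 cells. In the Cd34 cells it had 0 CPM at the lowest, 1479 CPM at the median and 7825 CPM at the highest, and in the Klf1 cells 52.6, 307 and 2285 CPM at these points. The means were 1735 ± 1919 CPM in the Cd34 cells and 470.1 ± 481 CPM in the Klf1 cells, 3.69-fold apart. Cell 27 was the highest Cd34 cell, and without it the log2 difference of 1.26 was 0.996, just under the call. Cell 33, a Cd34 cell with 1360 CPM of Fos and 1363 CPM of Ier2, had 0 reads of Jun, and without it the difference was 1.99.

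Junb, whose protein forms a less active AP-1 than JUN on many targets, had 2.09 CPM at the lowest, 523.8 CPM at the median and 2134 CPM at the highest in the Cd34 cells. In the Klf1 cells it had 0, 144 and 1495 CPM at these points. A level of 10 CPM was met in 12 of 14 Cd34 cells and in 26 of 33 Klf1 cells, with means of 539 ± 537 CPM in the Cd34 cells and 249.7 ± 300.1 CPM in the Klf1 cells. The log2 difference was 1.51. Jund, the JUN gene known for steady expression in resting cells, had the smallest difference of mean log2(CPM + 1) of the 9 members tested, while Fos had the smallest fold of means above 1. Its median was 69.0 CPM in the Cd34 cells and 67.3 CPM in the Klf1 cells, and its log2 difference was 0.17, or -0.93 among cells with at least 1000000 reads, where its direction turned and Fos differed less (0.34). It reached 10 CPM in 11 of 14 Cd34 cells and in 30 of 33 Klf1 cells.

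Fos had 0.751 CPM at the lowest, 809 CPM at the median and 2551 CPM at the highest in the Cd34 cells, and 0.173, 506 and 4095 CPM at these points in the Klf1 cells. The groups overlapped over almost the whole range, and no Cd34 cell exceeded the highest Klf1 cell. It reached 10 CPM in 13 of 14 Cd34 cells and in 29 of 33 Klf1 cells, with means of 1047 ± 871 CPM in the Cd34 cells and 745 ± 896 CPM in the Klf1 cells. Its log2 difference of 0.78 was under the call. Cell 41 was the 1 Cd34 cell under 10 CPM of Fos, and without it the difference was 1.40, past the call. Leaving out cell 16 also took it past the call.

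Fosb, a FOS paralogue, ran the other way. In the Cd34 cells 10 CPM was met in 3 of 14 Cd34 cells (21.4%, interval 4.66 to 50.8), which were cell 20 at 273, cell 47 at 41.9 and cell 7 at 11.8 CPM. It did so in 20 of 33 Klf1 cells (60.6%, 42.1 to 77.1), with 28.5 CPM at the median and 178 CPM at the highest, in cell 36. The intervals overlapped. Means were 23.5 ± 72.7 CPM in the Cd34 cells and 43.5 ± 48.4 CPM in the Klf1 cells, a fold of 0.539, but cell 20 held 83.1% of the Cd34 cells' sum and without it the fold was 0.0980. The log2 difference was -2.45, and 12.8% of the genes tested were as low or lower. With every cell thinned to 50000 reads Fosb was found in 3 Cd34 cells and in 16 Klf1 cells, at means of 27.1 and 38.8 CPM, near the 20 CPM that 1 read is worth there.

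Atf3, a stress-induced repressor that pairs with JUN proteins, was almost absent. It had 7 reads in all 49 cells, 6 of them in cell 34 (9.94 CPM) and 1 in Klf1 cell 14. None of the 14 Cd34 cells had a read, so up to 21.4% of such cells could carry one by 3 counts of 14, and up to 23.2% by the exact interval. It passed no filter and was not compared.

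By the shared rule, at 10 CPM in at least 50% of the cells of both groups, 5 members were shared: Fos, Jun, Junb, Jund and Ier2. That rule was met by 38.7% of the genes tested. These 5 reached 10 CPM together in 8 of 14 Cd34 cells and in 23 of 33 Klf1 cells. A FOS gene (Fos or Fosb) and a JUN gene were at 10 CPM together in 13 of 14 Cd34 cells and in 29 of 33 Klf1 cells (87.9%). The remaining cells of both groups had a JUN gene without a FOS gene: Cd34 cell 41 and Klf1 cells 4, 28, 43 and 49. Fos without Fosb was seen in 10 of 14 Cd34 cells and in 9 of 33 Klf1 cells, and both together in 3 of 14 Cd34 cells and in 20 of 33 Klf1 cells. Nr4a1 without Fosb was seen in 10 of 14 Cd34 cells and in 1 of 33 Klf1 cells, and Fosb without Nr4a1 in 1 of 14 Cd34 cells and in 15 of 33 Klf1 cells.

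Scaled to length, as CPM per kilobase of annotated exon, the order in the Cd34 cells was Ier2 (807 ± 663), Jun (544 ± 602), Fos (445 ± 370.4), Junb (234 ± 233), Zfp36 (233 ± 236), Nr4a1 (187 ± 185), Jund (112 ± 156), Egr1 (86.8 ± 88.1), Fosb (3.76 ± 11.6) and Atf3 (0). In the Klf1 cells it was Fos (317 ± 381), Ier2 (242 ± 352), Jun (147 ± 151), Junb (109 ± 130.4), Jund (58.5 ± 68.1), Zfp36 (35.7 ± 83.2), Nr4a1 (31.4 ± 109.9), Egr1 (19.5 ± 53.4), Fosb (6.97 ± 7.75) and Atf3 (0.00669 ± 0.0384). In both orders the means of every neighbouring pair differed by less than the larger SD over cells of the pair. Among the Klf1 cells, 20 of 33 had Fosb at 10 CPM and 0 of 33 had Atf3, the last pair (exact intervals 42.1 to 77.1% and 0 to 10.6%). This difference in presence was not tested.

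Cells 34 and 9, which met neither mark, lay at opposite ends. Cell 34 had the highest level of Fos (7194 CPM), Junb (2362 CPM), Nr4a1 (5200 CPM) and Zfp36 (6563 CPM) of all kept cells, with 1.66 CPM of Egr1 and of Fosb. Its neutrophil and monocyte markers summed to 44805 CPM and it had 51.4 CPM summed over the 12 HSC markers. Of the former, Mpo, Elane, Ly6c2 and S100a8 had 0 reads in cells 34 and 9. Dendritic markers, 6 genes, summed to 8436 CPM in cell 34. Cell 9, the shallowest kept cell, had reads of 2 members, 46.8 CPM of Zfp36 and 11.7 CPM of Ier2. Its B lineage markers, 7 genes, summed to 7811 CPM and its erythroid markers, 10 genes, to 9483 CPM. Neither cell enters the comparison of groups. At the Klf1 mark, the kept cell just inside was cell 37 (402 CPM of Klf1), with 0 CPM of Nr4a1 and 40.4 CPM of Zfp36. Just outside was cell 21 (197 CPM, a Cd34 cell), with 783 CPM of Nr4a1 and 724.1 CPM of Zfp36. At the Cd34 mark, cell 2 was just inside, with 67.1 CPM of Nr4a1 and 399 CPM of Zfp36, and cell 34 (1.66 CPM of Cd34) just outside.

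Across the 49 kept cells the members tended to vary together. The mean of the 45 pairwise Spearman correlations of CPM was 0.303, against a median of 0.0626 over all pairs of genes tested. Cells share their source and differ in depth, so these values are descriptions. The correlation of single members with a cell's reads ran from -0.36 for Jund to 0.16 for Fosb. Within the Klf1 cells it ran from -0.44 for Fos to -0.03 for Nr4a1. Within the Cd34 cells it ran from -0.45 for Jund to 0.24 for Zfp36. The part of depth in the correlations between members was not tested. Of the 45 pairs, 10 were above 0.5 (22.2%, against 0.343% of all pairs) and 5 were below 0. The highest were Ier2 with Zfp36 (0.679), Ier2 with Jun (0.663), Jun with Junb (0.646), Nr4a1 with Zfp36 (0.639) and Jun with Egr1 (0.620). Fosb had a mean correlation of 0.0398 with the other 9 members and Jund one of 0.183, against 0.424 for Ier2 and 0.416 for Jun. Without cell 34 the mean over pairs was 0.281.

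Within groups the pattern differed in part. Among the 33 Klf1 cells the mean correlation was 0.325, with a median over all genes of 0.0124. Fosb followed Fos there (0.652) and also Ier2 (0.440), and Jun with Egr1 (0.670) and Egr1 with Zfp36 (0.655) were the highest pairs. Among the 14 Cd34 cells, the 36 pairs that could be computed had a mean of 0.104, with a median over all genes of 0.0427. Egr1 with Ier2 (0.732), Jun with Ier2 (0.644) and Jun with Junb (0.635) stayed high there. Nr4a1 had a mean of -0.13 with the other members among the Cd34 cells, and its lowest values were with Jund (-0.51) and Fosb (-0.49). With 14 cells such values are loose, and the difference between groups was not tested. Correlations of Atf3 rest on 2 cells with a read and say little.

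**Figure D3:**
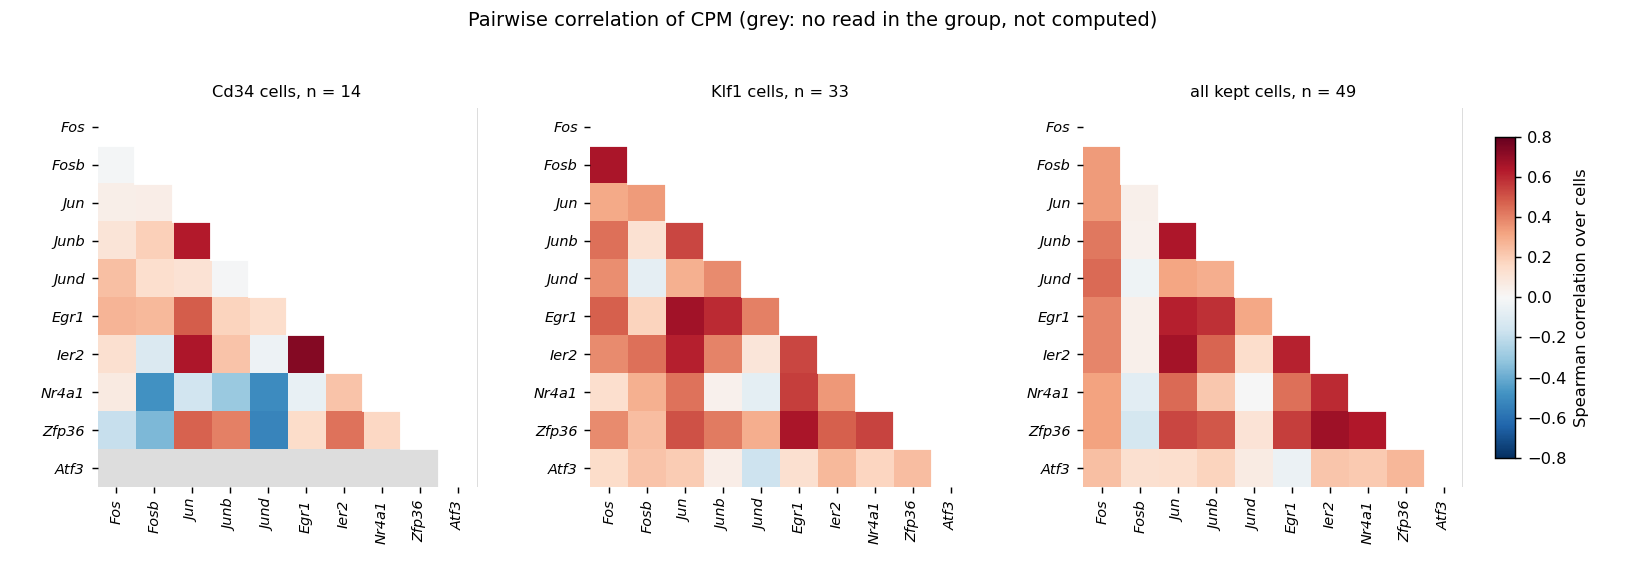
Spearman correlation of CPM over cells for each pair of members (colour), in the 14 Cd34 cells, the 33 Klf1 cells and all 49 kept cells; grey marks Atf3 in the Cd34 cells, where it had no read. The block of Jun, Junb, Egr1, Ier2 and Zfp36 is red in the Klf1 cells and in all cells. Fosb with Fos is 0.652 in the Klf1 cells and 0.339 over all cells, where the mean of Fosb with the other 9 members is 0.0398.

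Members were also ordered by presence. All 23 cells with Fosb at 10 CPM had Fos at 10 CPM, whereas 20 cells had Fos without Fosb. All 39 cells with Junb had Jun, and all 19 cells with Nr4a1 had Ier2, though Jun and Ier2 were present in 47 and 46 of the 49 cells. Of the 19 cells with Nr4a1, 18 had Zfp36, while 13 cells had Zfp36 without Nr4a1. Egr1 and Nr4a1 were found together in 12 cells and apart in 12 and 7. Single cells departed from the shared pattern. Klf1 cell 36 was the highest Klf1 cell for Fos (4095 CPM), Jun (2285 CPM), Junb (1495 CPM), Egr1 (1205 CPM), Zfp36 (1528 CPM) and Fosb (178 CPM), yet had 0.905 CPM of Nr4a1. Klf1 cell 15 had 3180 CPM of Fos, 2884 CPM of Ier2 and 1197 CPM of Nr4a1. Cd34 cell 41 had 0.751 CPM of Fos beside 1602 CPM of Jun and 2301 CPM of Ier2.

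Genes around the members in the same response were compared from 5 lists. Of 32 other immediate early genes, 19 could be compared; 9 were higher in the Cd34 cells and 0 lower, with a median log2 difference of 0.99 (background 9.67% higher, 46.3% lower, median -0.87). Klf6, a zinc finger factor of the early response, averaged 191 ± 162 CPM in the Cd34 cells and 33.9 ± 86.4 CPM in the Klf1 cells (log2 difference 4.22). Btg2, an antiproliferative gene, averaged 393 ± 411 CPM in the Cd34 cells and 46.9 ± 92.1 CPM in the Klf1 cells (3.86). Ier3, an early gene of survival signalling, averaged 268 ± 229 CPM in the Cd34 cells and 58.8 ± 86.0 CPM in the Klf1 cells (2.86). Nfkbia, the NF-κB inhibitor, was at 287 ± 335 CPM in the Cd34 cells and 379 ± 451 CPM in the Klf1 cells (-0.90). Klf10, a TGF-β early gene, had a log2 difference of -0.53, under the call. Its means ran the other way, at 66.9 ± 113 CPM in the Cd34 cells and 43.1 ± 57.3 CPM in the Klf1 cells.

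Of 15 other AP-1 and bZIP genes, 8 could be compared, with 2 higher, 2 lower and a median of -0.05. Fosl2, which encodes the FOS relative FRA-2, reached 10 CPM in 5 of 14 Cd34 cells and in 1 of 33 Klf1 cells (62.7 ± 140.0 and 1.93 ± 8.50 CPM). Atf7 was higher (89.6 ± 118 CPM in the Cd34 cells, 27.1 ± 49.4 CPM in the Klf1 cells) and Atf4, of the amino acid response, differed by 0.45. Atf2, a partner of JUN, averaged 42.7 ± 96.9 CPM in the Cd34 cells and 51.2 ± 44.4 CPM in the Klf1 cells and was at 10 CPM in 4 of 14 and in 23 of 33 (-2.30). Mafk, a small MAF partner of erythroid NF-E2, was lower (47.5 ± 93.0 CPM in the Cd34 cells, 106 ± 112 CPM in the Klf1 cells, -2.18).

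Of 18 genes that signal to these promoters, 2 were higher, 8 were lower and the median was -0.92, close to that of all genes. Rps6ka1, a ribosomal S6 kinase, averaged 259.9 ± 312 CPM in the Cd34 cells and 59.4 ± 98.1 CPM in the Klf1 cells, and Elk3, a partner of SRF, 54.7 ± 94.3 CPM in the Cd34 cells and 11.1 ± 26.5 CPM in the Klf1 cells. Mapk14, which encodes p38α, averaged 309.6 ± 289.5 CPM in the Cd34 cells and 169.7 ± 141 CPM in the Klf1 cells, a log2 difference of 0.87. Mapk9, which encodes the kinase JNK2, averaged 111 ± 137 CPM in the Cd34 cells and 147 ± 97.2 CPM in the Klf1 cells, a log2 difference of -2.17.

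Of 12 feedback and decay regulators compared, 2 were higher and 4 lower. Dusp6, a dual-specificity phosphatase, averaged 86.0 ± 103 CPM in the Cd34 cells and 16.5 ± 35.7 CPM in the Klf1 cells (2.27). Zfp36l2, a relative of Zfp36, averaged 314 ± 209 CPM in the Cd34 cells and 118 ± 119 CPM in the Klf1 cells (1.69) and was at 10 CPM in all 49 kept cells. Spry2, an inhibitor of receptor tyrosine kinase signalling, differed by 0.95. Tnfaip3, which encodes the NF-κB inhibitor A20, was lower, at 34.3 ± 60.3 CPM in the Cd34 cells and 139.96 ± 142 CPM in the Klf1 cells (-3.27), and Cnot7, a deadenylase subunit, differed by -1.94.

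Heat shock genes are also known to be induced by tissue dissociation. Of 13 listed, Hspa1a, Hspa1b and Hspb1 averaged 0, 0.0153 and 1.18 CPM over the kept cells, too low to be compared. Of 10 compared, 0 were higher and 5 lower, with a median of -1.04. The lower share and the median are near those of all genes tested (46.3% and -0.87). A part of dissociation in the levels of the members was not tested. Hspd1 averaged 394 ± 308 CPM in the Cd34 cells and 1023 ± 396 CPM in the Klf1 cells (-2.35), and Hsph1 50.997 ± 85.4 CPM in the Cd34 cells and 117 ± 106 CPM in the Klf1 cells (-2.53). Hspa8 (-0.49), Hsp90ab1 (-0.07) and Hspa5 (0.10) were under the call.

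**Figure D4:**
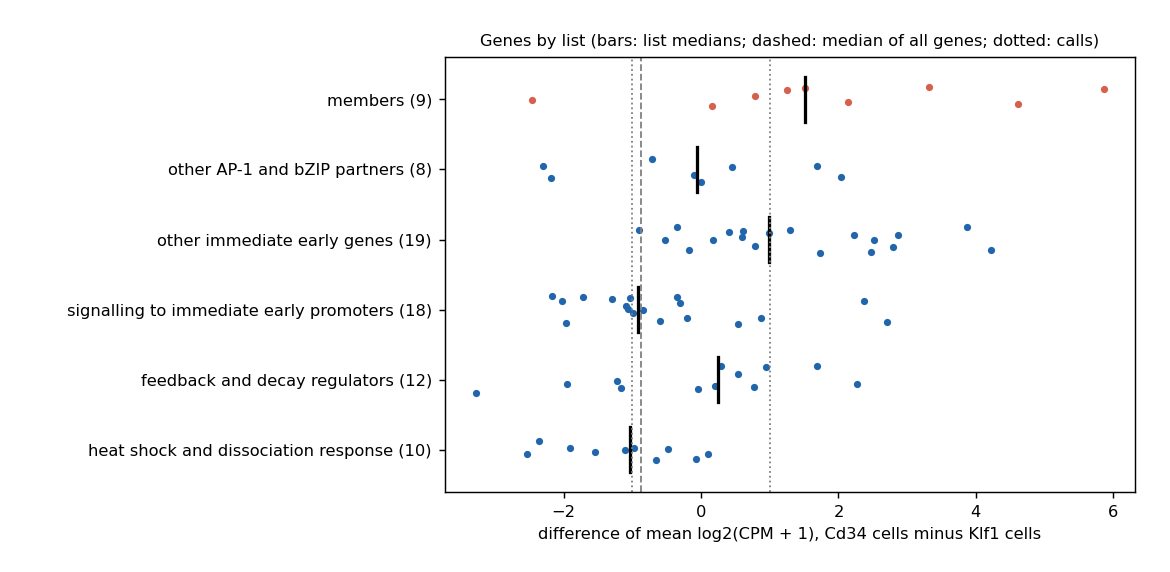
Difference of mean log2(CPM + 1), Cd34 cells minus Klf1 cells, for each gene that could be compared (points), by list; bars are list medians, the dashed line is the median of all 9158 genes (-0.87) and dotted lines mark the calls at 1 and -1. The members and the other immediate early genes have medians of 1.51 and 0.99, to the right of the dashed line, and the heat shock genes one of -1.04, to its left.

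Outside the members, the genes whose level over the 49 kept cells was most like theirs, by mean Spearman correlation with the 10 members among 9149 genes, were Sh3bgrl3 (0.446), H3f3b (0.421), Lcp2 (0.414), Fxyd5 (0.411), Dusp1 (0.411), Elf1 (0.410), Coro1a (0.408), H2-K1 (0.404), Itm2b (0.401) and Arpc1b (0.397). Over all genes the median was -0.06. Dusp1, the MAP kinase phosphatase, is itself an early gene and averaged 809 ± 623 CPM in the Cd34 cells and 622 ± 920 CPM in the Klf1 cells. H3f3b encodes histone H3.3, Elf1 an ETS factor, and Coro1a and Arpc1b regulators of actin. Of these 10 genes, 8 were also called higher in the Cd34 cells, such as Coro1a (837 ± 462 CPM there and 95.5 ± 232 CPM in the Klf1 cells). Such a call was made for 9.67% of the genes tested. But the 10 were picked for likeness to members of which 6 were called higher there, so the count follows in part from the choice. Within the Klf1 cells the mean correlation with the members was 0.372 for Dusp1 and 0.398 for Arpc1b. Within the Cd34 cells it was 0.306 for Dusp1 and -0.06 for Arpc1b, the highest and the lowest of the 10. All 10 stayed among the first 50 with every cell thinned to 50000 reads.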

How the data were processed

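Members and gene lists were chosen with earlier results of these data known. The authors deposited expected counts per gene (estimated counts, 4.23% of them not whole) for 52 cells of 1 label. Trim Galore 0.5.0, Salmon 0.03.1 and GRCm38 are named in the submitters' processing notes, the version as given there; the transcript set, strand setting and filters were not given there. Salmon-type counts divide reads of similar transcripts by a model. Values were rounded, scaled to CPM and filtered (3 cells left out); lacking molecular identifiers, PCR reads are not independent molecules. Symbols, coordinates and exon lengths came from GENCODE M21, promoters from RefSeq (GRCm38.p6). No pair of cells had identical columns. Cells are not replicates, so no p-value was computed, and no doublet caller was run on the 52 libraries. Groups were compared as differences of mean log2(CPM + 1). Shares carry exact Clopper-Pearson and sums exact Poisson 95% intervals. The genes named are all members, from each list of the pathway the 3 genes with the largest and the 2 with the lowest difference, and the 10 most alike by mean Spearman correlation. A single one of the genes so chosen is not reported here. Alternatives were equal depth (thinning), other cell sets, totals, thresholds and pseudocounts. The calculations were tested on simulated data, with Python 3.11.15, numpy 2.4.6, pandas 2.3.3 and scipy 1.17.1.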

Additional observations from a re-analysis of the deposited data

Results flagged for a closer look

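Reads of members above the 3 counts that a count of 0 allows were present in cells that the filter left out and that no comparison used. Cell 10 (39692 reads) had 100.8 CPM of Fos and 100.8 CPM of Nr4a1, or 4 reads of each. Cell 12 (32439 reads) had 154 CPM of Fos, 123 CPM of Jun, 185 CPM of Junb and 185 CPM of Zfp36. At this depth these are 4 to 6 reads each. Cell 5, left out for 28.3% mitochondrial reads, had no member above 3 reads.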

How the results depend on the processing

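No paired analysis was possible because all cells carry 1 label and no animal or batch is named. Of 56 recomputed values of the 5 main results, 52 stayed within their limits (counts and correlations within 1.5 times, shares within the exact interval). Marks of 50 CPM for Cd34 and of 400 CPM for Klf1 chose the same 14 and 33 cells as the main marks. Values under these marks, here and among the 110 differences below, could not change and show no stability. With 1 read in place of 10 CPM as the minimum, 97.96% of cells had at least 5 members, 0 members were restricted to Cd34 cells and 8 were shared by both groups. With cells of at least 1000000 reads, chosen after seeing the data, 0 were restricted. Leaving out 1 cell at a time gave 5 (without cell 27) to 7 (without cell 41) members higher in the Cd34 cells, and a mean correlation of 0.281 to 0.315. The 110 recomputed differences of single members all kept their side of the call; Nr4a1 ran from 3.91 to 7.15, Zfp36 from 3.38 to 5.80 Fosb from -2.70 to -1.14 and Jund, never called, from -0.93 to 0.42. Depth limits the low end: in the shallowest kept cell 1 read is over 10 CPM. Over all 15134 genes with a read in any kept cell, 7.51% were called higher and 28.3% lower.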
